A study of Rattus norvegicus with 14 samples.

Results

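Oxidative phosphorylation is carried out by protein complexes of the inner mitochondrial membrane, and the genes of their nuclear-encoded subunits were followed in hairless rat skin. The genes were found by RefSeq symbol. They are those whose symbol begins with Nduf (complex I and its assembly factors), Uqcr (complex III), Cox4 to Cox8 (complex IV) or Atp5 (ATP synthase), together with Sdha, Sdhb, Sdhc and Sdhd (complex II) and Cyc1. Cox7a1 and Cox8b were left out beforehand. Of the 30367 probes on the array, 104 matched, for 82 genes of the 15154 that could be named, and 81 genes had a probe well above background on at least 6 of the 14 arrays. Counts and shares over all genes given below also include transcripts that could not be named. Cox8c, an isoform of complex IV, was well above background on 0 arrays and has no level here. Of the protein-coding symbols under the rule, 36 had no matched probe, Cyc1 among them, and were not analysed here. The 81 measured genes comprise 33 of complex I, 6 of its assembly factors, 4 of complex II, 8 of complex III, 15 of complex IV and 15 of ATP synthase.

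The animals were male rats of the strain given as CD Haireless rat. Of these, 6 were exposed to millimetre waves of 94 GHz for 3 h a day, 3 days a week, over 5.5 months, and 8 were sham controls. Skin was taken at the end, and each animal gave 1 one-colour Agilent array made from 0.1 µg of RNA. The rats were housed in pairs. The labels do not pair the rats by cage, so p-values treat the animals as independent, and the spread they measure is that between these animals. All values are log2 signals after subtraction of each array's 75th percentile. Probes differ in brightness, so values of a gene are compared between animals and not with those of another gene.

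The respiratory chain passes electrons from NADH through complex I, or from succinate through complex II, to ubiquinone, then through complex III to cytochrome c and through complex IV to oxygen. The proton gradient built on the way drives ATP synthase. Several subunits of complex IV come as paired isoforms, one found in most tissues and one in heart and skeletal muscle or in other specialised tissue. Skin biopsies of the trunk can include the panniculus carnosus, the thin skeletal muscle under the dermis, and muscle is rich in mitochondria.

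The tissue label was checked with Krt14, the keratin of basal epidermal cells, which lay between 6.69 and 7.29 in all 14 animals. The 75th percentile of the array signal ran from 799.5 scanner units in sham animal 6 to 1946 in sham animal 2. The exposed arrays averaged 1490 ± 311 (SD, n = 6) and the sham arrays 1498 ± 339 (SD, n = 8), a difference with p = 0.958 (exact permutation over 3003 splits, two-sided). The array of sham animal 6 stood apart. It held the highest value of 56 of the 81 genes and the lowest of 13. Its scores for white adipocyte markers (-0.95) and hair follicle markers (-1.72) were the lowest of the 14 animals. So were those for endothelial markers (-0.46), citric acid cycle genes (-0.24), regulators of mitochondrial biogenesis (-0.20) and electron carriers and transporters (-0.098). Its scores for complexes I, III and IV and for ATP synthase were the highest. A score is an average over the genes of a list, each gene's log2 level first being centred on its mean over the 14 animals. Where a call turned on this array, the value without it is given. In bulk skin, fewer cells of a type and less RNA per cell cannot be told apart.

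One gene of the 81 varied far more between animals than the rest. Cox6a2 encodes the heart and skeletal muscle isoform of subunit 6A of cytochrome c oxidase (complex IV), and Cox6a1 the isoform found in most tissues. Cox6a2 had an SD of 2.79 over the 14 animals, Cox7c of 0.73 and Uqcr11 of 0.41, and the median over the 81 genes was 0.24. The smallest spreads were those of Atp5f1a (SD 0.073), the catalytic-core alpha subunit of ATP synthase, of Atp5pb (SD 0.082), of its peripheral stalk, and of Uqcrfs1 (SD 0.085), the Rieske iron-sulfur protein of complex III.

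Cox6a2 was set against Ckm, the muscle creatine kinase, as a measure of the skeletal muscle RNA in each biopsy. Ckm ran from -5.19 in sham animal 8 through a median of -2.26 to 3.81 in exposed animal 2, a range of 9.01 on the log2 scale, and it was well above background on all 14 arrays. Cox6a2 was well above background on 13 arrays. In exposed animals it lay at -4.31 at the lowest, -1.55 at the median and 2.69 at the highest, and in sham animals at -6.19, -3.77 and 1.58. The groups overlapped, and the same animals were the lowest (sham animal 8) and the highest (exposed animal 2) for both genes.

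Fitted with limma across all genes, Cox6a2 rose by 0.98 ± 0.044 (SE) for each log2 unit of Ckm (95% interval 0.89 to 1.07; adjusted p = 2.65e-09). It was the 1 gene of 81 past the threshold, where 0.344% of the 18624 genes tested (64 genes, all rising with Ckm) were called. Over the 14 animals Pearson's r with Ckm was 0.987 and Spearman's rho 0.956 (permutation tests, two-sided, p = 1e-05 for each, the smallest the permutations can give, and 0.00012 after adjustment over 12 relations). Those 12 were the 5 members of highest and the 5 of lowest slope on Ckm in these same values, with Cox6a1 and Ndufs3 added. The permutation p-values do not allow for that choice. Without exposed animal 2 and sham animal 5, the 2 farthest from the median of Ckm, r was 0.974. The slope was 0.97 within slide 3 (adjusted p = 0.000155), which held 3 animals of each group. Within slide 4, with 1 exposed and 3 sham animals, it was 0.93 (adjusted p = 0.371), and 0 of the 18624 genes were called there. With any single animal left out the slope lay between 0.97 and 0.99. With the filter that asks for signal well above background on all 14 arrays Cox6a2 is dropped by construction, and the authors' deposited table does not list it.

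The promoters of Cox6a2 and Ckm are shown because the 2 genes moved together across the animals. Those of Cox8a, a subunit of complex IV without such a muscle pattern, and Ndufaf4, the member with the smallest p for exposure, are shown beside them. These 2 hold matches to motifs that most members' windows lack, so they are not typical of the members. Each window printed is the 250 bases before the start given by RefSeq on assembly GRCr8, from 5′ to 3′ of the gene's strand. Capitals mark the matches to 4 motifs searched on both strands: the E-box CAGCTG, bound by the MyoD family of muscle factors; the MEF2 consensus, bound by the MEF2 muscle factors; CGCATGCG, the core of the site of NRF1, a regulator of respiratory chain genes; and CCGGAAGT, a site of ETS factors such as GABP. No match overlaps another in these windows.
Cox6a2 (chr1:192219717-192219966, minus strand): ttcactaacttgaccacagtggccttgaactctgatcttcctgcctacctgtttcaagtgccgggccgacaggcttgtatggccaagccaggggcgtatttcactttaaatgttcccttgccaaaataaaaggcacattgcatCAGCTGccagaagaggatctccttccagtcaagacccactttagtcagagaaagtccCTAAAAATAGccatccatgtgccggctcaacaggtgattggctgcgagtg
Ckm (chr1:88189211-88189460, plus strand): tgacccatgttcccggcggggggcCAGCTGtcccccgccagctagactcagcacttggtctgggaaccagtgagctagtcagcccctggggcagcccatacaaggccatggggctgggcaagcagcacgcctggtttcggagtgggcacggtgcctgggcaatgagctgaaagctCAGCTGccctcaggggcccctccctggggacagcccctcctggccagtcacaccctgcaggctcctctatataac
Cox8a (chr1:213833624-213833873, minus strand): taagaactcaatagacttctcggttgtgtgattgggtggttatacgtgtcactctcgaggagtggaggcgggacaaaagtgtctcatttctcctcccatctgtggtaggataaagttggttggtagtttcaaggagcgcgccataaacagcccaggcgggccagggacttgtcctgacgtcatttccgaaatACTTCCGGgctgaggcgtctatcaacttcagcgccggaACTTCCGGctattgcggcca
Ndufaf4 (chr5:43401545-43401794, plus strand): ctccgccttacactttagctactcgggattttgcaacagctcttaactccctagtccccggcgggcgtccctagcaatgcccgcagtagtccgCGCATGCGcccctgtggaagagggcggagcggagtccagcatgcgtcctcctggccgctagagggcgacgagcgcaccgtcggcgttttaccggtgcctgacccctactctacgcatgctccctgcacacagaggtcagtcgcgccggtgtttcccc

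Promoter entries were found for 71 of the 81 measured genes. The MEF2 consensus, searched after the Cox6a2 window had been read, lay in 1 of the 71 windows, that of Cox6a2 (1.41%), and in 3.07% of all 27457 windows of this length. The E-box was in 7 of the 71 (9.86%) and in 11.9% of all. The NRF1 core, chosen after matches to a longer form of the site had been counted, was in 9 of the 71 (12.7%; Atp5mc2, Atp5me, Atp5mg, Atp5pf, Atp5po, Ndufa11, Ndufaf4, Ndufaf5 and Uqcrc1) and in 1.63% of all windows. The ETS letters were in 7 (9.86%), with 2 matches in Cox8a, and in 3.29% of all. Median GC content was 56.4% in the members' windows and 52% in all. These are matches of letters, not measured binding.

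**Figure D1:**
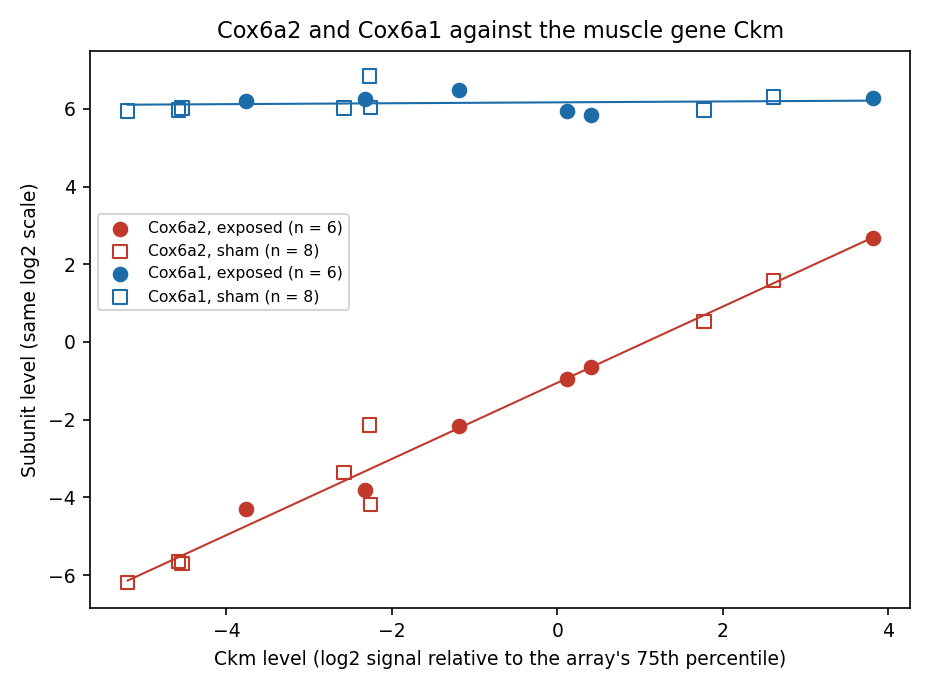
Levels of Cox6a2 (red) and Cox6a1 (blue) against the level of Ckm in the same animal, all as log2 signal relative to the array's 75th percentile; filled circles are the 6 exposed and open squares the 8 sham animals, and lines are the fitted slopes. Cox6a2 climbs from -6.19 to 2.69 along Ckm with a slope of 0.98, while Cox6a1 stays between 5.85 and 6.85; the heights of the 2 probes are not comparable with each other.

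The ubiquitous partner did not show this pattern. Cox6a1 lay at 5.85, 6.23 and 6.48 (lowest, median, highest) in exposed and at 5.95, 6.02 and 6.85 in sham animals, with a slope on Ckm of 0.012 (95% interval -0.044 to 0.068). The difference between the isoforms, Cox6a2 minus Cox6a1 within each animal, had a slope of 0.97 (95% interval 0.89 to 1.05; permutation p = 1e-05, 4e-05 adjusted over 4 isoform pairs compared). For Cox4i2, the isoform of subunit 4 known from lung and low oxygen, minus Cox4i1 the slope was -0.019 (95% interval -0.046 to 0.0080; permutation p = 0.152). It was -0.015 (95% interval -0.073 to 0.044; permutation p = 0.61) for Cox6b2, known from testis, minus Cox6b1, and 0.017 (95% interval -0.011 to 0.044; permutation p = 0.214) for Ndufa10l1 minus Ndufa10. These 4 pairs were chosen after the data were seen. Cox8b, the muscle isoform of subunit 8 that the rule leaves out, rose by 0.70 ± 0.048 (SE) per unit of Ckm (limma, adjusted p = 3.03e-07), and its partner Cox8a had a slope of 0.0080.

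Across the other 80 genes the slopes on Ckm lay between -0.012 and 0.030, and their 95% intervals between -0.14 and 0.16, both ends set by Cox7c. Of the 81 slopes 73 were above 0, where 46.4% of all genes had a slope above 0, and the median was 0.012 against -0.0013 over all genes. The genes moved together across the arrays, so their signs are not independent. The median correlation between pairs of the 80 genes other than Cox6a2 was 0.71. The mean score of those 80 genes had a Pearson's r of 0.18 with Ckm. This lean above 0 was small beside the spread between animals. From 71 to 74 of the 80 or 81 slopes were above 0 within slide 3 (median 0.019), with other background correction, scaling, filters and probe rules, with array weights and with group as a covariate, and 61 with slide as a block. It turned in 2 settings. The median slope was -0.0023 without the 2 animals farthest from the median of Ckm, with 29 of 81 slopes above 0, and -0.018 within slide 4, with 19 above 0. With Acta1, skeletal muscle actin, in place of Ckm it was 0.0014, with 45 above 0.

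By complex, 29 of 33 slopes of complex I were above 0 and 0 were called. The highest were those of Ndufa4 (0.030 ± 0.034, SE), which was named for complex I and has since been placed in complex IV, of Ndufv2 (0.025) and Ndufs4 (0.024), in the peripheral arm of complex I, and of Ndufa5 (0.023). Among the lowest were those of Ndufb2 (-0.012) and Ndufa1 (-0.0057) of complex I, Atp5mc2 (-0.011) of the c-ring of ATP synthase and Cox4i2 (-0.0065). Ndufs3, a core subunit of complex I, had a Pearson's r of 0.61 with Ckm (permutation p = 0.0203, adjusted p = 0.122 over 12 relations; limma adjusted p of its slope = 0.9999). Its relation was added outside the naming rule, and most of the 12 were picked by slope, so these permutation p-values do not allow for the choice. That relation rested on the 2 farthest animals, without which r was 0.20. Slopes were above 0 in 4 of 4 genes of complex II (0.0053 to 0.015), 8 of 8 of complex III (0.0018 to 0.020) and 14 of 15 of ATP synthase (-0.011 to 0.017). Since the genes moved together, the signs in these counts by complex are not independent either.

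**Figure D2:**
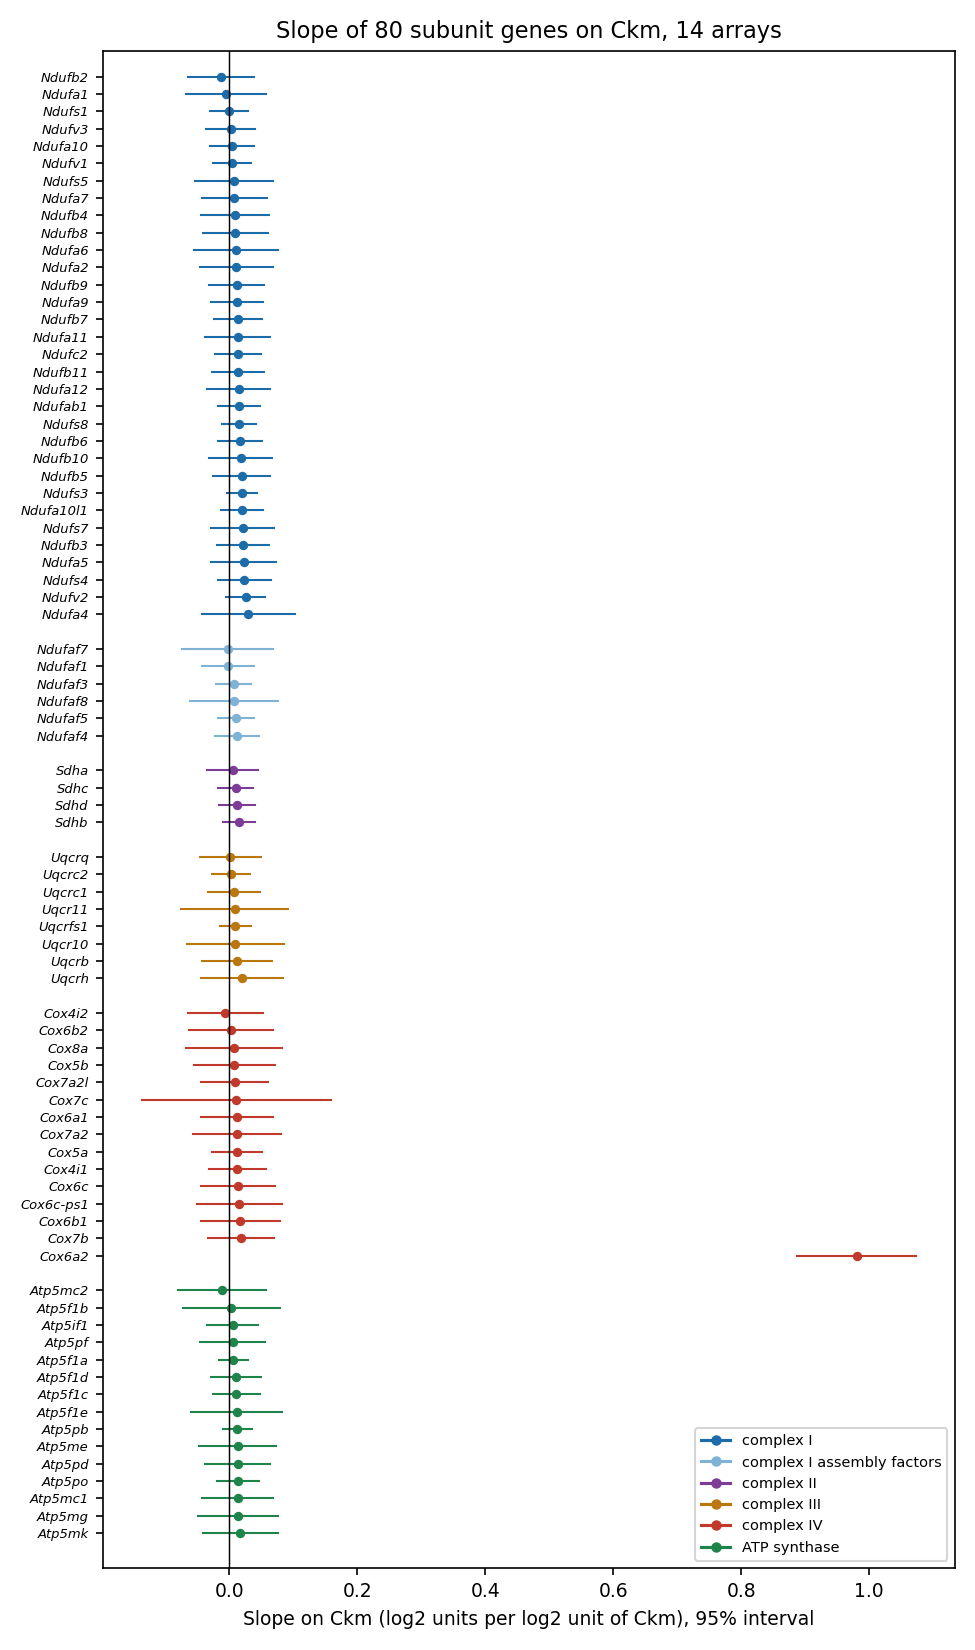
Slope of 80 of the subunit genes on Ckm, in log2 units per log2 unit of Ckm, with 95% intervals from limma over 14 arrays; colours give the complex. Cox6a2 stands at 0.98 and the other 79 genes drawn lie between -0.012 and 0.030.

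Muscle RNA varied widely between animals of both groups. Of 22 listed skeletal muscle markers 18 were measured, and 16 of the 17 other than Ckm rose with Ckm (limma, adjusted p under 0.05), among them Tnnc2 (slope 1.05), Atp2a1 (0.95), Acta1 (0.93) and Mb (0.66). The parvalbumin gene Pvalb had a slope of 0.26 (adjusted p = 0.0641). The muscle marker score ran from -1.75 to 4.53 in exposed and from -2.42 to 3.21 in sham animals.

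No subunit gene passed the test for exposure. With limma, 0 of the 81 genes passed an adjusted p of 0.05 for exposed against sham skin, and the share called over all 18625 genes was 0 as well. At an unadjusted p under 0.05 there was 1 member, Ndufaf4, where 3.44% of all genes (641) lay under that p, 0.977% higher and 2.46% lower in exposed skin. Differences for 51 of the 81 were above 0 and for 30 below, with a median of 0.011, and 42.3% of all genes were above 0 with a median of -0.021. For 79 of the 81 (97.5%) the 95% interval lay within 1.5-fold in either direction, as it did for 80.2% of all genes. The exceptions were Cox6a2 and Cox7c. The groups overlapped for every one of the 81 genes, and 0.0322% of all genes (6) had groups without overlap.

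The balance of signs moved with the processing and the slide. Of 81 genes, 63 were above 0 with quantile normalization (median 0.038) and 53 within slide 3 (median 0.036), but 18 with slide as a block (median -0.036) and 21 within slide 4 (median -0.18). In the authors' deposited table the count above 0 was 62 of 80. With Ckm as a covariate the count was 39 of 81 (median -0.0040), and without sham animal 6 the median was 0.084. The median difference over all genes moved as well, from -0.021 to -0.0056 with quantile normalization and to -0.0053 in the authors' table. For the other settings named here it is not given. The members moved together across the arrays, so their signs are not independent. In none of the settings run was any member called.

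**Figure D3:**
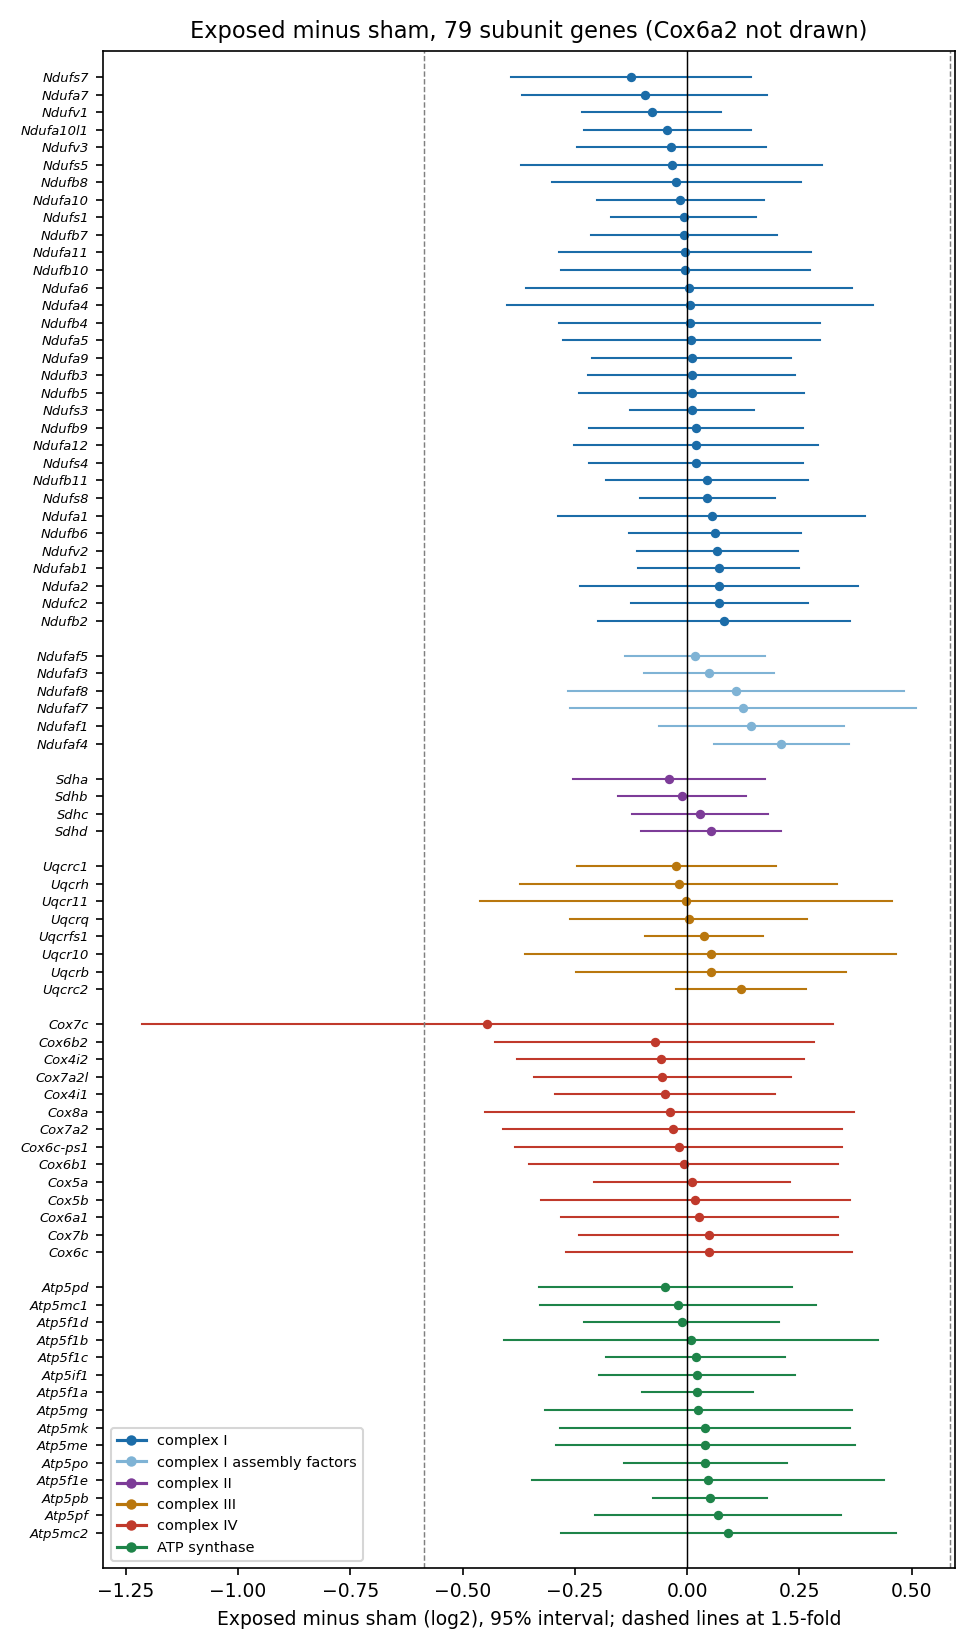
Exposed minus sham difference of 79 subunit genes on the log2 scale with 95% intervals from limma (6 exposed, 8 sham animals); dashed lines mark 1.5-fold and colours the complex. All intervals but that of Ndufaf4 (0.060 to 0.36) include 0, and that of Cox7c alone crosses a dashed line; Cox6a2, at 1.61 with an interval from -1.33 to 4.54, is not drawn.

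Complex I takes electrons from NADH and is the largest of the complexes. Its core subunits, among them those of Ndufs1, Ndufs3, Ndufs7, Ndufs8, Ndufv1 and Ndufv2, carry the flavin, the iron-sulfur clusters and the ubiquinone site, and further genes encode supernumerary subunits (Ndufa1, Ndufa2, Ndufa4, Ndufa5, Ndufa6, Ndufa7, Ndufa9, Ndufa10, Ndufa10l1, Ndufa11, Ndufa12, Ndufab1, Ndufb2, Ndufb3, Ndufb4, Ndufb5, Ndufb6, Ndufb7, Ndufb8, Ndufb9, Ndufb10, Ndufb11, Ndufc2, Ndufs4, Ndufs5 and Ndufv3). Ndufa4 is counted with the supernumerary genes by its symbol, although it has since been placed in complex IV. Differences lay between -0.13 for Ndufs7 and 0.067 for Ndufv2 in these core genes and between -0.095 and 0.082 in the others. Ndufv1, the flavin-binding subunit that oxidises NADH, lay at 3.44, 3.54 and 3.81 (lowest, median, highest) in exposed and at 3.43, 3.65 and 3.79 in sham skin, a difference of -0.079 ± 0.073 (SE). Its exposed values fell inside or close to the sham range. Ndufs1, the large iron-sulfur subunit, differed by -0.0076 and took the other sign in 5 of the 14 fits with an animal left out. Differences were 0.0099 for Ndufa9, -0.024 for Ndufb8 and 0.0059 for Ndufa4.

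Assembly factors build complex I without being part of it. The differences of the 6 measured factors were all above 0, from 0.017 for Ndufaf5 to 0.21 for Ndufaf4, with a median of 0.12. Ndufaf4 lay at -0.58, -0.44 and -0.39 (lowest, median, highest) in exposed and at -0.84, -0.68 and -0.45 in sham animals. The exposed median lay above the highest sham value, but the lower exposed values fell inside the sham range, so the groups overlapped. The difference of 0.21 ± 0.070 (SE; 95% interval 0.060 to 0.36) had an unadjusted p of 0.0093 and an adjusted p of 0.999 with limma. All 4 of its probes gave differences above 0 (0.11 to 0.33), as did slide 3 (0.20) and slide 4 (0.31), and leaving out single animals gave 0.19 to 0.24. With the mean of its probes 0 members came under an unadjusted p of 0.05. Ndufaf1 differed by 0.14 ± 0.096 (SE), with 0.013 within slide 3 and 0.37 within slide 4. Leaving out sham animal 6 gave 0.087. Ndufaf3, Ndufaf7 and Ndufaf8 differed by 0.048, 0.12 and 0.11, and the second probe of Ndufaf7 gave -0.043.

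Complex II, succinate dehydrogenase, belongs to both the citric acid cycle and the respiratory chain. Its flavoprotein gene Sdha lay at 2.19, 2.34 and 2.46 in exposed and at 1.84, 2.46 and 2.56 in sham skin, with a difference of -0.040 ± 0.10 (SE). Its iron-sulfur subunit gene Sdhb differed by -0.011 and those of the membrane anchors Sdhc and Sdhd by 0.0285 and 0.053. The 4 genes spread little, with SDs from 0.097 to 0.18.

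Complex III passes electrons from ubiquinol to cytochrome c. Uqcrc2, one of its core proteins, lay at 2.17, 2.34 and 2.42 in exposed and at 2.06, 2.19 and 2.38 in sham animals, a difference of 0.12 ± 0.068 (SE; unadjusted p = 0.098, limma adjusted p = 0.999), with 0.0024 within slide 3 and 0.25 within slide 4. The other core protein gene, Uqcrc1, differed by -0.024 and the Rieske protein gene Uqcrfs1 by 0.037. Differences of the small subunit genes Uqcrb, Uqcrh, Uqcrq, Uqcr10 and Uqcr11 lay between -0.019 and 0.053.

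Complex IV reduces oxygen to water. Cox6a2 had the largest difference of all members, 1.61 ± 1.37 (SE; 95% interval -1.33 to 4.54), which the spread between animals did not resolve. It was 0.0020 with Ckm as a covariate, 0.11 within slide 3, 1.65 within slide 4, 0.62 with slide as a block and 0.76 without exposed animal 2. The skeletal muscle markers moved the same way, with 18 of 18 measured markers above 0 and a median difference of 1.31, and 0 of them called. Cox7c, a small structural subunit, lay at -1.17, 0.32 and 0.84 in exposed and at -0.87, 0.59 and 1.48 in sham animals. Its low values came from exposed animals 5 and 6 and sham animal 8, and its difference was -0.44 ± 0.36 (SE; 95% interval -1.21 to 0.32). That difference was -0.19 within slide 3, -1.497 within slide 4, -0.20 without exposed animal 6 and -0.25 with array weights.

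The other 13 genes of complex IV, Cox4i1, Cox4i2, Cox5a, Cox5b, Cox6a1, Cox6b1, Cox6b2, Cox6c, Cox6c-ps1, Cox7a2, Cox7a2l, Cox7b and Cox8a, differed by -0.072 to 0.049. Cox6c-ps1 is named as a pseudogene of Cox6c. Of the 81 genes, 40 have named pseudogenes in RefSeq, against which the probes were not tested. Cox7a2l, which joins complexes III and IV into supercomplexes, differed by -0.056. Cox8a differed by -0.039, and the sign turned with quantile normalization (0.0020) and without sham animal 6 (0.11).

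ATP synthase makes ATP from ADP in the catalytic core formed by the subunits encoded by Atp5f1a and Atp5f1b. Atp5f1a lay at 6.04, 6.11 and 6.19 in exposed and at 5.91, 6.11 and 6.18 in sham skin, with a difference of 0.022 ± 0.058 (SE; 95% interval -0.10 to 0.15). Atp5f1b differed by 0.0082 ± 0.19 (SE). The rotor stalk is encoded by Atp5f1c, Atp5f1d and Atp5f1e, the c-ring by Atp5mc1 and Atp5mc2, the peripheral stalk by Atp5pb, Atp5pd, Atp5pf and Atp5po, and small membrane subunits by Atp5me, Atp5mg and Atp5mk. Of the 15 genes 12 were above 0, and the differences lay between -0.049 for Atp5pd of the peripheral stalk and 0.092 for Atp5mc2. Atp5if1, the inhibitor of ATP hydrolysis by the enzyme, differed by 0.022 and the c-ring gene Atp5mc1 by -0.021.

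The genes that feed, build and regulate the chain were counted in the same fits. Of 14 measured citric acid cycle genes, 17 electron carriers and transporters, 25 other assembly factors and 10 regulators of mitochondrial biogenesis, 0 were called for exposure and 0 for a slope on Ckm. Citrate synthase (Cs) differed by 0.053, cytochrome c (Cycs) by 0.15, the nuclear receptor Esrra by -0.019, and the ADP/ATP carriers Slc25a4, the isoform of heart and muscle, and Slc25a5 by 0.034 and 0.020. Slc25a4 had a slope on Ckm of 0.026 ± 0.013 (SE; limma adjusted p = 0.9999). The coactivator gene Ppargc1a did not pass the filter.

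A second pattern ran across the arrays. Most subunit genes were high together in some animals and low together in others. The median correlation between pairs of the 80 genes other than Cox6a2 over the 14 animals was 0.71, and 0.019 between pairs of all genes. Without sham animal 6 these were 0.68 and 0.026. All of these points share the array and its scaling. The mean over the 80 genes was lowest in exposed animal 5 (-0.23) and highest in sham animal 6 (0.39), with exposed animal 3 at 0.21. Of the 81 genes, 41 had their lowest value in exposed animal 5. Exposed scores averaged 0.0054 ± 0.16 (SD, n = 6) and sham scores -0.0041 ± 0.18 (SD, n = 8), and the groups overlapped.

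**Figure D4:**
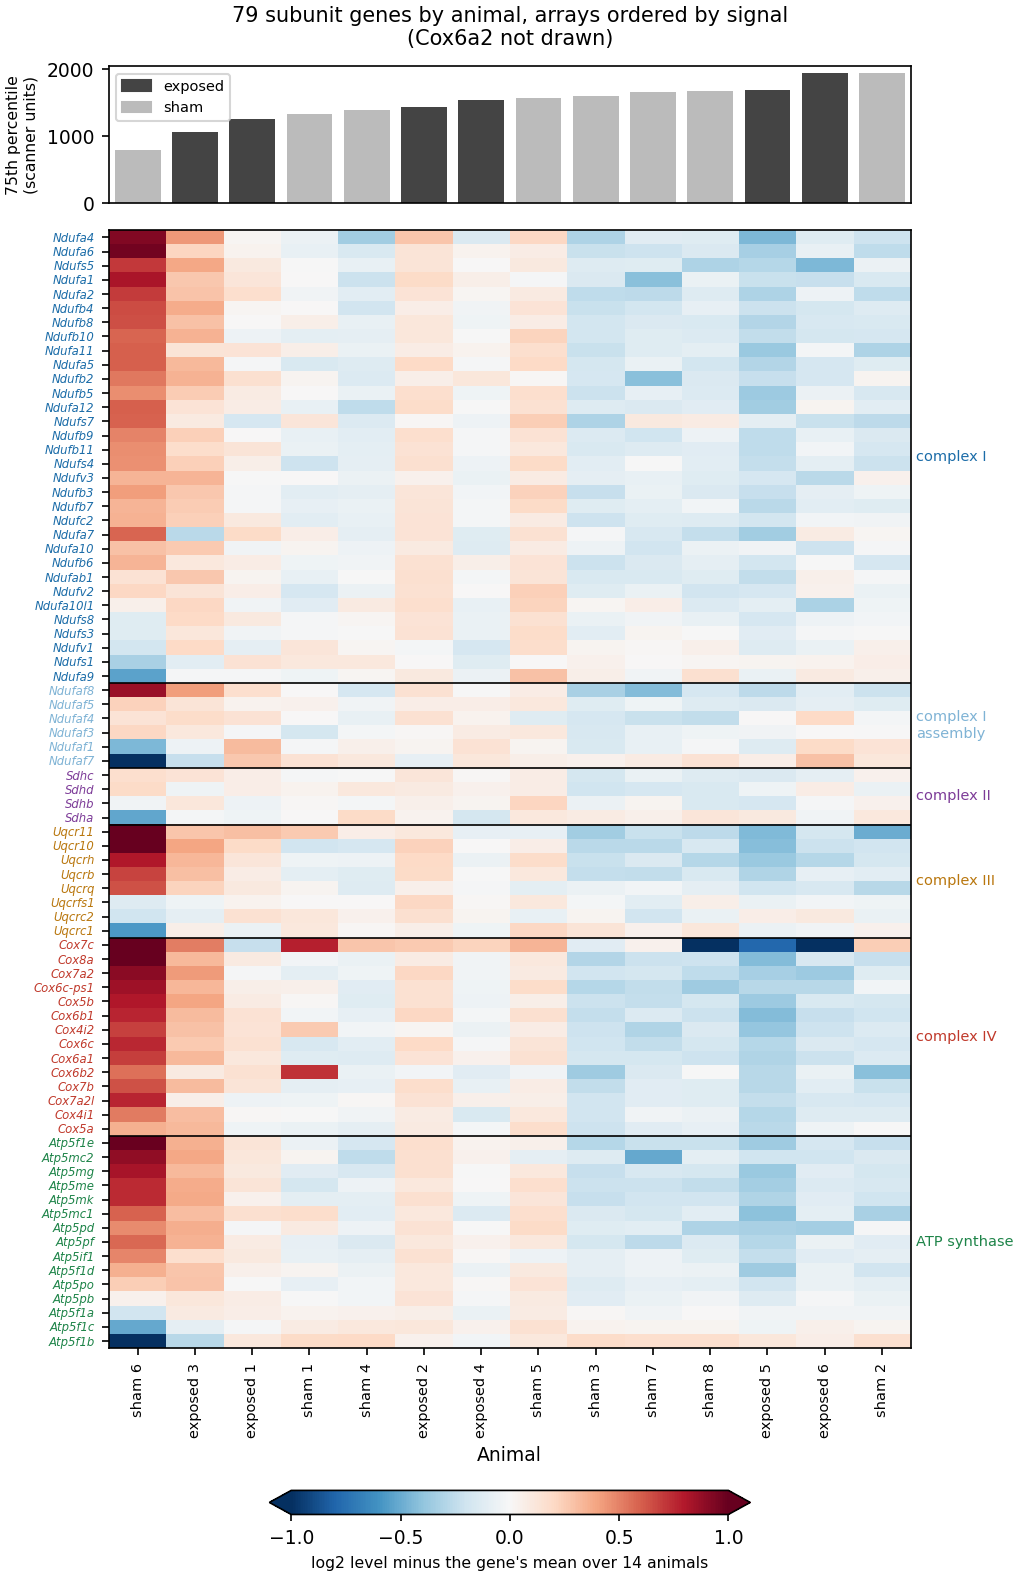
Log2 level of 79 subunit genes minus each gene's mean over 14 animals (colour, red above and blue below the mean), with animals in columns ordered by the 75th percentile of their array in scanner units (bars; dark exposed, light sham) and genes in rows by complex. Most rows are red in sham animal 6, at 799.5 scanner units, while Atp5f1b, Ndufaf7, Ndufa9, Sdha, Uqcrc1 and Atp5f1c are among those blue there.

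This joint movement went in part with the overall signal of the array. With array signal regressed out of each gene, the median correlation between pairs of the 80 genes was 0.48. In a limma slope on the log2 of the array's 75th percentile, a relation chosen after the data were seen, 55 of the 81 genes were lower on brighter arrays and 6 were higher (adjusted p under 0.05), against 19.8% lower and 12.5% higher of all 18625 genes. That same percentile is subtracted from every value, so the slope and the values share a term. The counts therefore cannot separate a trait of these genes from the scaling. The split depended on the scaling. After quantile normalization 14 members were lower (17.3%) and 12 higher (14.8%), near the shares of all genes, 13.4% and 14.7%. By the authors' deposited table, the counts were 16 of 80 lower (20%) and 12 higher (15%), with 14.7% and 16.9% of all genes. With normexp background correction 56 members were lower (69.1%) and 7 higher (8.64%), but 42.8% and 7.83% of all genes were so called. The split depended on sham animal 6 as well. Without it 12 were lower (14.8%, and 4.87% of all genes) and 0 higher (0.746% of all genes), although 73 of 81 slopes were then below 0. Within slide 3 there were 0 called in either direction, as there were 0 of all 18625 genes, with 71 of 81 member slopes below 0. Within slide 4 there were 22 lower (27.2%, and 7.57% of all genes) and 2 higher (2.47%, and 4.88% of all genes). The shares of all genes with slopes below 0 in these settings are not given. With array signal as a covariate 0 members were called for exposure. What sets the array signal was not tested.

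Under the 75th percentile scaling, called lower were 14 of 15 genes of complex IV, 11 of 15 of ATP synthase, 5 of 8 of complex III, 23 of 33 of complex I (22 of them supernumerary), 2 of 6 assembly factors and 0 of 4 of complex II. The share of all genes called lower was 19.8%. The total of 55 fell to 14 with quantile normalization and to 12 without sham animal 6. Counts by complex in those 2 settings are not given, so the order of the complexes may rest on the scaling and that array. Cox7c had a slope of -1.44 ± 0.42 (SE) per doubling of the 75th percentile, Uqcr11 of -1.12 ± 0.12, Cox8a of -0.95 ± 0.14, Uqcr10 of -0.94 ± 0.15 and Atp5f1e, the epsilon subunit of ATP synthase, of -0.91 ± 0.13. Without sham animal 6 these slopes were -1.57, -0.97, -0.64, -0.69 and -0.66, and those of Cox7c (limma adjusted p = 0.167) and Uqcr10 (limma adjusted p = 0.0643) were no longer called. After quantile normalization the slopes were -1.37, -0.51, -0.26, -0.12 and -0.15 in the same order, and those of Uqcr10 and Atp5f1e were no longer called.

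Uqcr11 shows the movement by animal. It lay at 4.12, 4.58 and 4.86 (lowest, median, highest) in exposed and at 4.06, 4.41 and 5.65 in sham animals. The highest value was that of sham animal 6, on the dimmest array, and the lowest that of sham animal 2, on the brightest.

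The 6 genes called higher on brighter arrays were Atp5f1b (slope 0.87 ± 0.18, SE), Ndufaf7 (0.81 ± 0.17), Ndufa9 (0.38 ± 0.11), Sdha (0.36 ± 0.11), Uqcrc1 (0.35 ± 0.12) and Atp5f1c (0.34 ± 0.10). Atp5f1b lay at 2.48, 2.82 and 2.87 in exposed and at 1.56, 2.93 and 2.96 in sham animals, with the single low value in sham animal 6. Without that animal none of the 6 slopes was called, with values of 0.28, 0.28, 0.11, 0.091, -0.016 and 0.064 in the same order. The mean of the probes of Ndufaf7 gave a slope of 0.14, which was not called.

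**Figure D5:**
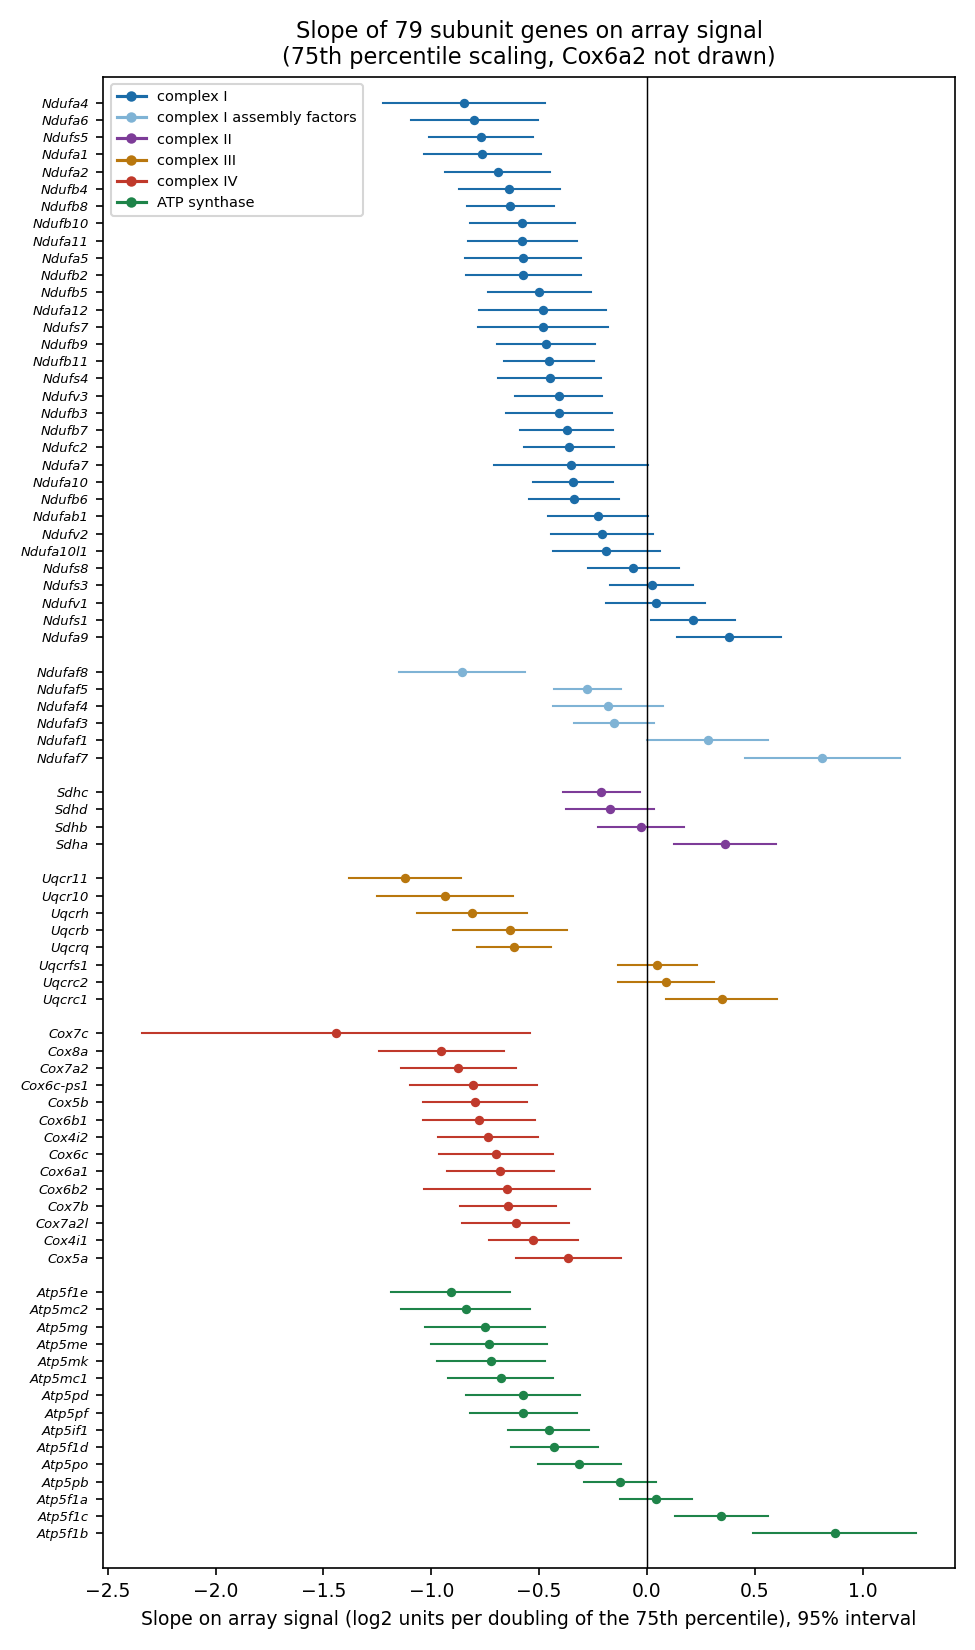
Slope of 79 subunit genes on array signal, in log2 units per doubling of the array's 75th percentile, with 95% intervals from limma over 14 arrays under the 75th percentile scaling; colours give the complex. The same percentile is subtracted from every value. Of the genes drawn, 55 are called lower and 6 higher, beside 19.8% and 12.5% of all genes. The split became 14 and 12 with quantile normalization (13.4% and 14.7% of all genes) and 12 and 0 without sham animal 6 (4.87% and 0.746%).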

How the data were processed

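Skin RNA of 14 rats, 6 exposed and 8 sham, was measured on 1 one-colour array each, grouped by the treatment in the labels. The deposited scanner files hold linear spot intensity. Per the file headers they come from version 10.7.3.1 of Agilent Feature Extraction (protocol GE1_107_Sep09), which subtracts background and does not scale arrays to each other. The log2 values of the authors' deposited table, centred per probe by a normalization not given in the sources used here, served as an alternative. Number of arrays, not sequencing depth, limits the precision.

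Each array held 62976 spots, of which 4259 control spots and spots marked as outliers were left out. Processed signals were converted to log2, less the array's 75th percentile, and spots of a probe were averaged. Probes well above background on at least 6 arrays were kept (21030 of 30367). Probes were named by matching accessions without version to RefSeq on GRCr8, which named 17998 (59.3%), and the brightest kept probe stood for a gene. Kept probes without a symbol were grouped by the identifier the array gives them, and each such identifier counts as a gene. The 18625 genes tested therefore include unnamed transcripts. Of 17 members with several kept probes, 6 (Ndufa10l1, Ndufab1, Ndufaf7, Ndufs4, Ndufs5 and Ndufv3) had probes that differed in the direction of the exposure difference. No kept member was saturated (0 arrays).

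Tests were run in R 4.3.3 with lmFit and eBayes of limma 3.58.1 (two-sided, Benjamini-Hochberg over all genes, threshold 0.05) on group, on Ckm or on the log2 of the 75th percentile. Correlations and isoform pairs used 100000 permutations, and array signal an exact permutation test. The fit was tested on simulated data. Alternatives were normexp with an offset of 50, quantile normalization, another percentile, other filters and probe rules, outlier spots, the authors' values, slide as a block or alone, array weights, covariates, Acta1 for Ckm, and leaving out arrays. Slide 1 held 2 sham arrays, slide 2 held 2 exposed, slide 3 held 3 of each and slide 4 held 1 exposed and 3 sham. Members, lists and tests were chosen with earlier results of these data known.

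Named genes were tissue isoforms, a set of core subunits, the 3 members of smallest p in each direction, the 5 of highest and of lowest slope on Ckm, and the 3 of largest and of smallest SD. One gene is in the counts but is not reported by name or drawn here. The rule also named members by mean level, which is not given since probes differ in brightness. Ndufs3 was added outside this rule to the relations with Ckm. Members named for array signal were chosen after their values were seen.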

Additional observations from a re-analysis of the deposited data

Results flagged for a closer look

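Samples far from the rest of their group were sought in 39 items over 78 groups, and 20 groups held one. Of these, 19 were sham animal 6 and 1 was exposed animal 3. Chance flags about 1 in 20 groups, but the count cannot be set against that rate. The genes are not independent of each other, since they share the array. Some of the flagged items were also named for array signal after their values were seen.

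In sham animal 6 the log2 array signal, relative to the mean of the 14 arrays, was -0.87, with the nearest other sham animal at -0.13. The mean score of complex III was 0.41, with the nearest at 0.052. Subunit genes high in that animal were Cox6a1 at 6.85 (nearest 6.31), Cox8a at 6.12 (nearest 5.15), Uqcr10 at 6.83 (nearest 5.90), Atp5mc2 at 6.603 (nearest 5.75), Atp5f1e at 6.44 (nearest 5.51), Ndufa1 at 5.26 (nearest 4.44), Ndufa4 at 5.15 (nearest 4.42) and Ndufb2 at 4.03 (nearest 3.53).

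Low in the same animal were Atp5f1b at 1.56 (nearest 2.87), Ndufaf7 at -3.12 (nearest -1.96), Atp5f1c at 1.83 (nearest 2.37), Uqcrc1 at 2.29 (nearest 2.88), Sdha at 1.84 (nearest 2.37), Ndufs1 at 1.38 (nearest 1.70), Ndufa9 at 0.97 (nearest 1.46), Ndufv1 at 3.43 (nearest 3.63) and Atp5f1a at 5.91 (nearest 6.07). Among exposed animals, Atp5f1b was low in animal 3, at 2.48 with the nearest at 2.74; that array had the lowest signal of its group, at 1069 scanner units.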

How the results depend on the processing

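In every setting run, 0 members were called for exposure, and where Cox6a2 was tested its slope on Ckm kept its sign. That slope was not called within slide 4, where 0 of all 18624 genes were called for Ckm, and the cause was not tested. The member count for Ckm was also 0 with the filter on all 14 arrays (33 of 16517 genes called) and in the authors' deposited values (17 of 13676). The filter drops Cox6a2 by construction, and the authors' deposited table does not list it. The median member slope on Ckm was -0.0181 within slide 4 and -0.0023 without the 2 arrays farthest from the median of Ckm. Members lower and higher with array signal were 55 and 6, beside 19.8% and 12.5% of all genes. They were 14 and 12 with quantile normalization (13.4% and 14.7% of all genes) and 16 and 12 in the authors' values (14.7% and 16.9%). With normexp they were 56 and 7 (42.8% and 7.83%). Within slide 3 they were 0 and 0, as over all genes, and within slide 4 they were 22 and 2 (7.57% and 4.88%). Leaving out single arrays gave 12 to 56 and 0 to 7. Both were lowest without sham animal 6 (4.87% and 0.746% of all genes). The cause was not tested.

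Signs turned for genes whose interval held 0. For exposed minus sham, quantile normalization gave 0.00199 for Cox8a, 0.0102 for Ndufs1 and 0.0072 for Sdhb. The authors' values gave 0.000897, 0.0102 and 0.00706, and a percentile over detected probes 0.0105 for Ndufs1 and 0.00726 for Sdhb. Normexp gave 0.00314 for Sdhb, and array weights -0.00976 for Atp5f1a and 0.113 for Cox8a. Slide as a block gave -0.0213 for Atp5f1a, -0.0581 for Cox6a1 and -0.0278 for Uqcrfs1. Slide 3 gave -0.0504 for Atp5f1a, 0.0377 for Cox8a and -0.0584 for Uqcrfs1, and slide 4 gave -0.319 for Cox6a1, 0.135 for Ndufs1 and 0.0376 for Sdhb. With single arrays left out the range was -0.00302 to 0.0379 for Atp5f1a, -0.0346 to 0.128 for Cox6a1, -0.108 to 0.112 for Cox8a, -0.0544 to 0.0165 for Ndufs1 and -0.0348 to 0.0216 for Sdhb.

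For slopes on Ckm, array weights gave 0.00133 for Atp5mc2, 0.00671 for Cox4i2 and 0.00709 for Ndufa1, and the mean of probes 0.00237 for Atp5mc2. Slide 3 gave 0.012 for Cox4i2, 0.0039 for Ndufa1 and 0.00382 for Ndufb2. Slide 4 gave -0.0256 for Cox6a1, -0.0325 for Ndufa4, -0.0115 for Ndufa5 and -0.00629 for Ndufs4. Cox6a1 was at -0.00409 with Acta1 in place of Ckm and -0.0071 without the 2 farthest arrays. With single arrays left out the range was -0.0282 to 0.0066 for Atp5mc2, -0.0148 to 0.00411 for Cox4i2, -0.023 to 0.00941 for Ndufa1 and -0.0221 to 0.00191 for Ndufb2. The slope of Uqcrc1 on array signal was -0.0168 within slide 3 and, leaving out single arrays, ran from -0.0162 to 0.425.

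No paired analysis was possible because the labels give no replicate numbers shared between the groups; animals are numbered only to name them. Dim signal limits Cox6a2, which was well above background on 13 arrays.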
